A study of Mus musculus with 4 samples.

Results

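The genes described here are 6 genes of fructose transport, fructose breakdown and the polyol route (Slc2a5, Khk, Tkfc, Glyctk, Sord and Akr1b3), picked by name out of the 22298 genes of the deposited count table, where all 6 were found. They were measured by RNA-seq in brown adipose tissue (BAT) of C57BL/6 fetuses (C57BL/6J in the study's methods) at E18.5, whose dams drank either sterilized tap water (control) or water with 20% (w/v) fructose during gestation. Each group had 2 libraries, named here control libraries 1 and 2 and fructose libraries 1 and 2, and no transgene or other treatment is named for either group. The sources do not give how many fetuses or litters stand behind a library, so that a p-value measures only the spread between these libraries, which may be technical.

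Fructose enters cells through the hexose transporter GLUT5, which Slc2a5 encodes and which, among the facilitative transporters, carries fructose and hardly any glucose. Ketohexokinase (Khk) then phosphorylates it to fructose 1-phosphate, an aldolase splits this into dihydroxyacetone phosphate and glyceraldehyde, triokinase (Tkfc) returns the glyceraldehyde to the triose pool, and glycerate kinase (Glyctk) handles the glycerate made from it. This route runs fastest in liver, intestine and kidney. Cells can also make fructose from glucose by the polyol route, in which aldose reductase (Akr1b3) forms sorbitol and sorbitol dehydrogenase (Sord) oxidises it to fructose. The comparison of fructose with control asks whether the genes of fructose entry and use differed in BAT of fetuses whose dams drank fructose.

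Slc2a5 (ENSMUSG00000028976) lies on chromosome 4 from 150119283 to 150144169 in GRCm38 (mm10), on the forward strand, and its reference transcript has 14 exons. No stretch of 50 bases of that transcript occurred in a transcript of another annotated gene, and no annotated gene overlaps it, so reads on Slc2a5 have no other annotated source. The study also measured this gene, under the name Glut5, by qRT-PCR, and reported it as upregulated in fetal BAT of the fructose group. The sources do not say whether the fetuses of that assay were those sequenced. The primers are shown because they place that assay on the same gene model as the counts, and both matched the reference transcript once, in exons 3 and 4, with a product of 64 bases. The sequences run 5′ to 3′, and the forward primer lies at chr4:150120727-150120746 (forward strand) and the reverse primer at chr4:150125595-150125614 (reverse strand).
Glut5 forward primer: agagcaacgatggaggaaaa
Glut5 reverse primer: ccagagcaaggaccaatgtc

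Khk (ENSMUSG00000029162, chromosome 5, 30921431 to 30931248, forward strand) is spliced into isoforms that differ in 1 internal exon, and the isoforms KHK-A and KHK-C of this kind are known for a low and a high affinity for fructose. Both exons have 135 bases and take the third place in the transcript. The upstream one lies at chr5:30926688-30926822 and the downstream one at chr5:30927022-30927156, and they match at 73 of 135 positions (54.1%) when laid side by side without gaps. The sequences, from GENCODE's transcripts of GRCm38, are shown because a count per gene adds up both forms, so that a Khk value does not tell which isoform was present. Capitals mark the 62 positions where the exons differ.
Khk upstream exon: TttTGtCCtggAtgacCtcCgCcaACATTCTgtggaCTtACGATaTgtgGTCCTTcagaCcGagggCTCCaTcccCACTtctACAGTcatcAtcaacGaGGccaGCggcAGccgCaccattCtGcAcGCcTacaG
Khk downstream exon: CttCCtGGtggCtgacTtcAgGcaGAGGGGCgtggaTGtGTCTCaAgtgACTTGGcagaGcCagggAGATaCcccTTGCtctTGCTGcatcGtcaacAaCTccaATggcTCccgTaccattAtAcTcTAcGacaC

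The reads of the other members are less distinct. Tkfc (ENSMUSG00000034371, chromosome 19, 10587791 to 10605654, reverse strand) shares 16.8% of its 50-base stretches with Cyb561a3, which overlaps it on the opposite strand. Glyctk (ENSMUSG00000020258, chromosome 9, 106152857 to 106158138, reverse strand) shares 47.8% with 8 other genes, including an antisense RNA that overlaps it. Sord (ENSMUSG00000027227, chromosome 2, 122234749 to 122265340, forward strand) shares 31.3% with 1 processed pseudogene. Akr1b3 (ENSMUSG00000001642, chromosome 6, 34302434 to 34317478, reverse strand) shares 86.2% with 5 genes, of which 4 are processed pseudogenes. None of the genes that share stretches with Sord or Akr1b3 is in the count table. The counting tool and its treatment of strand and of reads that match several places are not given in the sources used here, and the values of these 4 genes are therefore less certain than those of Slc2a5 and Khk.

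The libraries held 18542897 to 23645147 counts on genes, and a level of 0 counts allows up to 0.123 to 0.166 CPM (a gene's counts for every 1000000 counts of the library, with TMM scaling), taken as 3 counts and for counting error only. All labels give the fetuses as male. Summed over 4 Y-linked genes (Uty, Kdm5d, Ddx3y and Eif2s3y), control libraries 1 and 2 held 422 and 390 counts while both fructose libraries held 0, so the fructose libraries go against their sex label. This difference cannot be told apart from that of the dams' water in any result below. Mitochondrially encoded genes took 5.89 and 6.49% of the counts in control and 10.8 and 11.2% in fructose, and the part of this shift in the results was not tested. The labelled tissue was checked with 10 brown adipocyte markers, all of them detected, whose summed level was 22902 and 24950 CPM in the control libraries and 23190 and 21423 CPM in the fructose libraries, with 2 called higher and 1 lower. Of 10 hepatocyte markers, whose sum was at most 7.97 CPM, 5 had 0 counts in all 4 libraries and 8 had at most 3 in any library. Across all 12888 genes tested, the fold change rose with transcript length (Spearman's rho 0.52) and fell with GC content (rho -0.53), both taken over genes, which do not replicate one another.

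The 6 genes spanned a wide range of levels. Levels of different genes are compared here as CPM per kb of the reference transcript. Akr1b3 was at 51.6 and 54.2 CPM per kb in control libraries 1 and 2 and at 49.9 and 43.2 CPM per kb in fructose libraries 1 and 2. Khk followed at 13.4 and 11.9 CPM per kb in control and 10.6 and 10.4 in fructose. Sord was at 9.34 and 10.3 CPM per kb in control and 9.48 and 9.57 in fructose. The lowest of the 4 Khk libraries was thus only just above the highest of the 4 Sord libraries, and their order rests on the lengths of the reference transcripts. Tkfc was at 6.68 and 6.07 CPM per kb in control and 5.87 and 6.13 in fructose. Glyctk was at 2.57 and 2.74 CPM per kb in control and 2.33 and 1.98 in fructose. Slc2a5 came last in the control libraries, at 0.652 and 1.07 CPM per kb, and its fructose libraries, at 3.05 and 1.24 CPM per kb, lay on either side of those of Glyctk. The order of all neighbours but Glyctk and Slc2a5 was therefore the same in all 4 libraries. The enzymes of fructose breakdown were thus detected in every library beside a transporter that was the least abundant member in the controls.

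**Figure D1:**
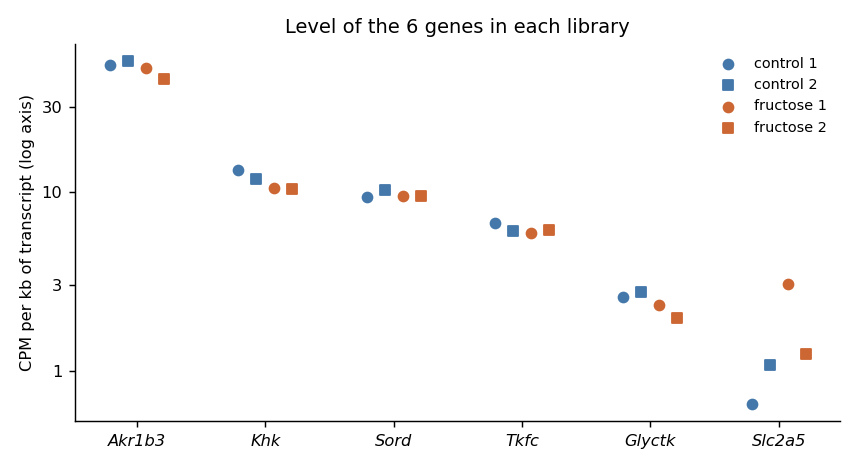
Level of each of the 6 genes in CPM per kb of the reference transcript (y axis, logarithmic) in the 2 control libraries (blue) and the 2 fructose libraries (orange), ordered by mean level. Each point is 1 library; Akr1b3 is highest in all 4, and the points of Slc2a5 spread from 0.652 to 3.05 CPM per kb while those of the other genes stay close together.

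Slc2a5 was the only member called different between the groups by edgeR at an adjusted p-value under 0.05. It had 39 counts in control library 1, 61 in control library 2, 218 in fructose library 1 and 96 in fructose library 2. These correspond to 2.06 and 3.38 CPM in control and 9.64 and 3.92 CPM in fructose, with exact 95% Poisson intervals of 1.46 to 2.81, 2.59 to 4.35, 8.41 to 11.0 and 3.18 to 4.79 CPM, respectively. Both fructose libraries lay above both control libraries, but fructose library 2 lay close to control library 2 with overlapping counting intervals. Fructose library 1 was the highest, at 2.46-fold the level of fructose library 2, and the counting intervals of these libraries did not overlap. The group means were 2.72 ± 0.94 CPM for control and 6.78 ± 4.05 CPM for fructose (mean ± SD of 2 libraries). The fold change from edgeR's quasi-likelihood model was 2.49 (log2 fold change 1.31, standard error 0.38), with a 95% interval of 1.39-fold to 4.43-fold and an adjusted p = 0.026 (Benjamini-Hochberg over all genes tested). Without fructose library 1 the log2 fold change was 0.53 (standard error 0.37) and edgeR no longer called it (adjusted p = 0.34). Without fructose library 2 it was 1.83, without control library 1 0.99 and without control library 2 1.71, each still called by edgeR.

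1 of the 6 genes (16.7%) was thus called by edgeR at an adjusted p-value under 0.05, where 26.2% of all genes tested were called. With the thresholds named in the study's methods (fold change above 1.3 at an unadjusted p-value under 0.05), 1 of 6 was higher, where 17.6% of all genes tested were. Both fructose libraries lay above both control libraries for 1 member, against 33.4% of all genes, and below them for 3 members (Khk, Glyctk and Akr1b3), against 31.6% of all genes. The members' median log2 fold change was -0.14, beside 0.0025 for all genes tested. With only 6 members, their share of calls is not read as different from that of all genes. No member was called lower by edgeR or by DESeq2, and 1 (Khk) was lower at an unadjusted p-value under 0.05 in edgeR.

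**Figure D2:**
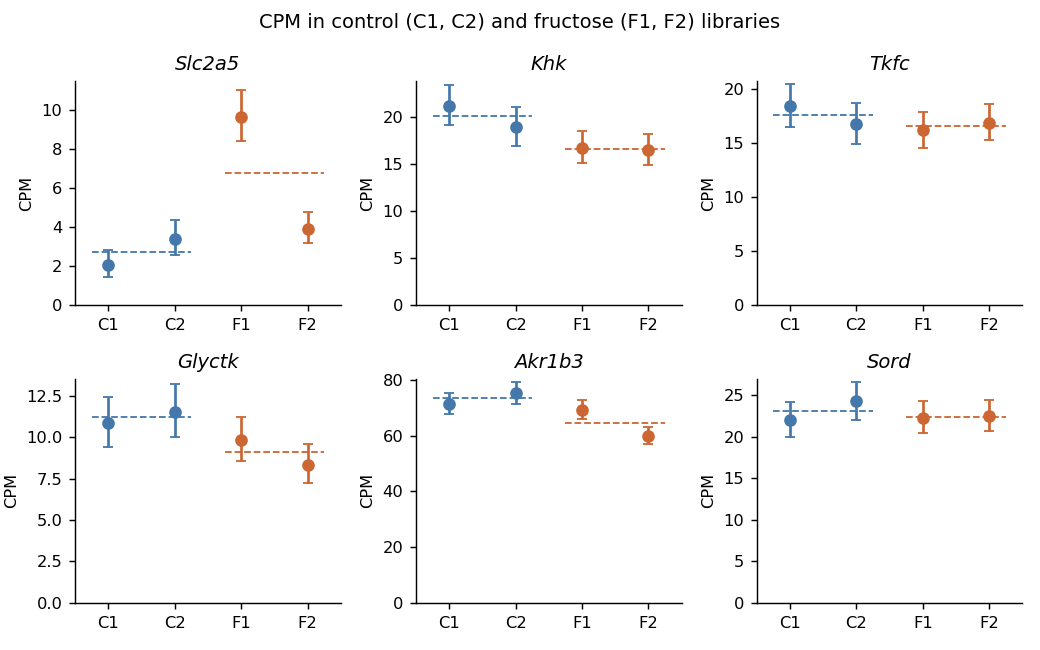
CPM (y axis, linear from 0) of the 6 genes in control libraries 1 and 2 (C1 and C2, blue) and fructose libraries 1 and 2 (F1 and F2, orange). Points are libraries, bars are exact 95% Poisson intervals of the counts and dashed lines are group means; fructose library 1 stands far above the other 3 libraries for Slc2a5 (9.64 CPM), whereas for Tkfc and Sord the groups overlap.

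The split between the fructose libraries in Slc2a5 was set beside markers of the cell types that the tissue sample could hold. In a bulk sample, fewer cells of a type and less RNA per cell cannot be told apart. The summed level of 13 skeletal muscle markers was 212 and 294 CPM in control libraries 1 and 2 and 733 and 535 CPM in fructose libraries 1 and 2, and all 13 were called higher in fructose by edgeR. Of all 12888 genes tested, 2001 were called higher, and 33.4% had both fructose libraries above both control libraries. For 12 of these 13 markers the libraries stood in the same order as for Slc2a5. Control library 1 was lowest, then control library 2, fructose library 2 and fructose library 1. The share of all genes in this full order was not computed, and markers of the same cell type do not replicate one another. Relative to the control mean, Slc2a5 was 3.54-fold and 1.44-fold in fructose libraries 1 and 2, and the sum of the muscle markers 2.90-fold and 2.12-fold. The ratio of fructose library 1 to fructose library 2 was 2.46 for Slc2a5 and had a median of 1.41 over the muscle markers (range 0.995 to 2.37), the highest being that of Myh7, a slow myosin heavy chain. The part of muscle RNA in the change of Slc2a5 was not tested.

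The other marker lists were set beside Slc2a5 in the same way. Summed macrophage markers (9 genes) were at 256 and 192 CPM in control and 192 and 200 CPM in fructose, with 1 called higher and 2 lower. Summed endothelial markers (6 genes) were at 1273 and 1295 CPM in control and 1214 and 1258 CPM in fructose, with none called by edgeR or DESeq2 at an adjusted p-value under 0.05 and 4 of them at an unadjusted one in edgeR. Summed erythroid markers (7 genes) were at 19212 and 15300 CPM in control and 11771 and 12146 CPM in fructose, with 5 called lower. GLUT5 is best known from intestinal and renal epithelium. The sum of 6 epithelial markers was 7.92 and 12.4 CPM in control and 14.2 and 14.3 CPM in fructose. Of these only Vil1 was high enough to test, with 147 and 218 counts in control and 311 and 339 in fructose. At 7.76 and 12.1 CPM in control and 13.8 and 13.8 CPM in fructose, Vil1 made up most of the sum. It was not called (log2 fold change 0.48, edgeR unadjusted p = 0.026, adjusted p = 0.080), but was higher by the thresholds of the study's methods. The kidney marker Cdh16 had 0 counts in all 4 libraries. No cell type can be assigned to Slc2a5 from these sums.

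**Figure D3:**
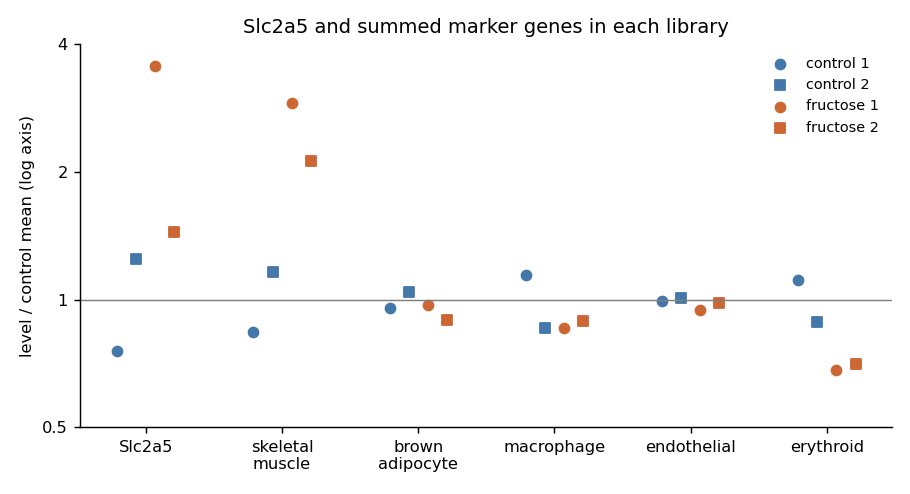
Level of Slc2a5 and summed level of the markers of 5 cell types in each library, divided by the mean of the 2 control libraries (y axis, logarithmic). Each point is 1 library; Slc2a5 (3.54 and 1.44) and the skeletal muscle markers (2.90 and 2.12) are above 1 in both fructose libraries, and the brown adipocyte, macrophage and endothelial sums are near 1.

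The profiles most like that of Slc2a5 over the 4 libraries, by the Euclidean distance between log2 CPM centred on each gene's mean, were those of Rassf9 (distance 0.33) and Dok7 (distance 0.35). Rassf9 was at 0.317 and 0.444 CPM in control and 1.28 and 0.613 CPM in fructose, and Dok7 at 0.264 and 0.555 CPM in control and 1.24 and 0.490 CPM in fructose. Fructose library 1 was highest for both, and neither was called by edgeR (adjusted p = 0.10 for Rassf9 and 0.21 for Dok7). Both genes were low, where counting error is large, and were picked as the closest among 12888 tested genes over only 4 libraries.

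Khk, Tkfc and Glyctk, which act behind the transporter, were not called by edgeR or DESeq2. Khk had 401 and 340 counts in control and 378 and 402 counts in fructose, at 21.2 and 18.9 CPM in control and 16.7 and 16.4 CPM in fructose. Both fructose libraries of this first kinase of the route lay below both control libraries. The difference was -0.27 on the log2 scale (standard error 0.12), a fold of 0.827 with a 95% interval of 0.686 to 0.998. It had an unadjusted p = 0.048 and was not called by edgeR over all genes (adjusted p = 0.12). With the trends of transcript length and GC content both removed, the log2 fold change of Khk was -0.0060, so that its size rests on whether these trends are kept.

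Tkfc, the triokinase, had 349 and 302 counts in control and 366 and 414 in fructose, at 18.4 and 16.8 CPM in control and 16.2 and 16.9 CPM in fructose. The groups overlapped, and the difference was smaller than the spread between the control libraries. The log2 fold change was -0.088 (standard error 0.13, edgeR adjusted p = 0.64), with a 95% interval of the fold from 0.778 to 1.14.

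Glyctk, the glycerate kinase, had 205 and 208 counts in control and 222 and 204 in fructose, at 10.8 and 11.5 CPM in control and 9.82 and 8.33 CPM in fructose. Its fructose libraries lay below both control libraries, at -0.30 on the log2 scale (standard error 0.16, edgeR adjusted p = 0.17) and a 95% interval of the fold from 0.642 to 1.03. With the transcript length trend alone removed it was called lower (log2 fold change -0.48, edgeR adjusted p = 0.040), whereas removing both trends gave -0.32 and no call (edgeR adjusted p = 0.21).

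The genes of the polyol route differed in level, and neither was called. Akr1b3, aldose reductase, had 1355 and 1356 counts in control and 1566 and 1467 in fructose, at 71.5 and 75.2 CPM in control and 69.3 and 59.9 CPM in fructose. The fructose libraries were lower, with fructose library 2 lowest, and the log2 fold change was -0.18 (standard error 0.092, edgeR adjusted p = 0.16). Its 95% interval ran from a fold of 0.765 to 1.01. Sord, sorbitol dehydrogenase, had 416 and 437 counts in control and 504 and 551 in fructose, at 22.0 and 24.2 CPM in control and 22.3 and 22.5 CPM in fructose. The fructose libraries of Sord lay within the range of the control libraries. Its log2 fold change was -0.044 (standard error 0.11, edgeR adjusted p = 0.80), with a 95% interval of the fold from 0.819 to 1.15. The sign of Sord turned when libraries were scaled by size only (0.018) or control library 2 was left out (0.029).

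Across these 5 genes, none of which was called, the 95% intervals of the fold ran from 0.642 to 1.15 at their widest. The intervals leave room for modest changes in either direction in Tkfc and Sord. Those of Glyctk and Akr1b3 reach only 1.03 and 1.01 at their upper ends and leave room mainly for a decrease. The lower and upper ends of the intervals say how large a change these 4 libraries could have missed. With both trends removed, Tkfc and Akr1b3 were at -0.0021 and -0.0022 on the log2 scale.

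**Figure D4:**
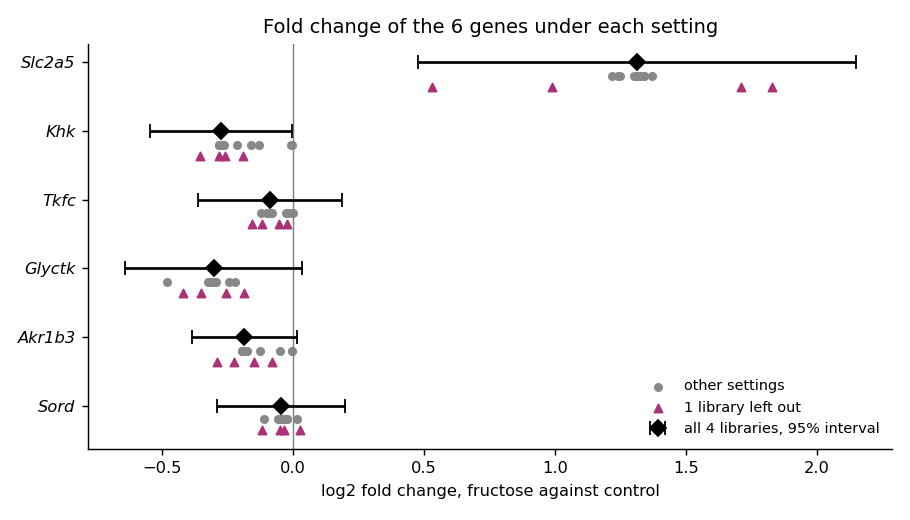
Log2 fold change of fructose against control (x axis) of the 6 genes. Diamonds are edgeR's values over all 4 libraries with 95% intervals, grey points are other settings of the processing and triangles are fits with 1 library left out; for Slc2a5 the triangles spread from 0.53 to 1.83, and the other 5 genes stay at or below 0.029 in every fit.

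To place the 6 genes within the wider handling of fructose, 41 other genes were examined, of which 33 were high enough to test. Of these, 4 were called higher and 5 lower by edgeR at an adjusted p-value under 0.05. These 9 are 27.3% of those tested, near the 26.2% of all genes, and their list's median log2 fold change was -0.097. With the fold threshold of the study's methods the balance differed, with 5 genes higher (the 4 called by edgeR and Aldoc) and 1 lower (Grhpr), where 17.6% of all genes tested were higher and 6.18% lower. Of the genes too low to test, Slc2a7, Hkdc1 and Akr1b7 had 0 counts in all 4 libraries, and Fbp1, the gluconeogenic fructose bisphosphatase of liver, had at most 11.

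No transporter other than GLUT5 that can carry fructose was called higher by edgeR or DESeq2, and none was higher at an unadjusted p-value under 0.05 in edgeR. Slc2a8 (GLUT8, an intracellular hexose transporter) was at 49.5 and 56.7 CPM in control and 42.1 and 41.6 CPM in fructose, and was called lower by edgeR (log2 fold change -0.34, adjusted p = 0.020). Per kb of transcript it was the highest of the 5 listed transporters, at a mean of 25.2 CPM per kb in control. Slc2a9 and Slc2a12 were not called, with log2 fold changes of 0.21 and 0.15. Slc2a2 (GLUT2, a carrier of glucose and fructose in liver and intestine) was at 0 counts in control libraries and at 1 and 2 counts in fructose libraries 1 and 2, and Slc2a7 at 0 in all 4.

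Of the aldolases, 1 of 2 tested was called lower by edgeR, beside 1379 of 12888 over all genes tested. Aldoa, the widely expressed aldolase, was at 7143 and 7214 CPM in control and 6148 and 5279 CPM in fructose, and was called lower (log2 fold change -0.33, standard error 0.10, edgeR adjusted p = 0.036). Aldoc averaged 3.96 ± 1.12 CPM in control against 5.92 ± 1.20 CPM in fructose (mean ± SD of 2 libraries) and was not called (log2 fold change 0.57, unadjusted p = 0.039, edgeR adjusted p = 0.11), but was called higher without control library 1 (0.90). None of the 4 tested hexokinases, which can phosphorylate fructose to fructose 6-phosphate, was called by edgeR at an adjusted or an unadjusted p-value under 0.05, or by DESeq2. Hk2 had the highest level per kb of them, averaging 318 ± 0.069 CPM in control against 303 ± 11.9 CPM in fructose (mean ± SD of 2 libraries), and was called lower with the length trend alone removed (-0.37). Gckr, the glucokinase regulator that binds fructose 1-phosphate in liver, had at most 1 count in any library.

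Of 6 genes of triose and glycerate handling, 2 were called lower by edgeR, beside 1379 of 12888 over all genes tested. Tpi1, triose phosphate isomerase, averaged 1164 ± 7.48 CPM in control against 939 ± 76.3 CPM in fructose (mean ± SD of 2 libraries), with a log2 change of -0.31 (edgeR adjusted p = 0.025). Grhpr, which reduces hydroxypyruvate to glycerate, was at 147 and 142 CPM in control and 109 and 110 CPM in fructose (log2 fold change -0.40, standard error 0.079, edgeR adjusted p = 0.0042). Gpd1, the glycerol 3-phosphate dehydrogenase with the highest level per kb of the list, was not called (log2 fold change -0.18, edgeR adjusted p = 0.27), but was called lower without control library 1 (-0.27). Among genes that make or use fructose 6-phosphate, Gpi1, the glucose 6-phosphate isomerase, was lower (-0.34, standard error 0.093, edgeR adjusted p = 0.019). Gfpt1, which opens the hexosamine route, was higher at 14.9 and 14.5 CPM in control and 18.6 and 24.0 CPM in fructose (log2 fold change 0.53, standard error 0.14, edgeR adjusted p = 0.018). Most of these calls turned on single libraries and on the length and GC trends. Without fructose library 2, edgeR no longer called Slc2a8 (-0.33), Aldoa (-0.22), Tpi1 (-0.23), Gpi1 (-0.25) or Gfpt1 (0.34), and Slc2a8 was also lost without fructose library 1 (-0.35) and without control library 2 (-0.24). With both trends removed none of these 5 genes was called, nor was Grhpr. The log2 fold changes were then -0.12 for Slc2a8, -0.095 for Aldoa, -0.14 for Tpi1, 0.043 for Gfpt1 and -0.12 for Grhpr, while that of Gpi1 kept most of its size (-0.28, edgeR adjusted p = 0.10).

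In AMP and purine breakdown, which is fed by the ATP that ketohexokinase uses, 2 of 5 tested genes were called higher by edgeR. With only 5 genes, this share is not read as different from the 2001 of 12888 called higher over all genes tested. Ampd1, the AMP deaminase of skeletal muscle, had 16 and 32 counts in control and 77 and 69 in fructose, at 0.845 and 1.78 CPM in control and 3.41 and 2.82 CPM in fructose. Both fructose libraries lay above both control libraries, as they did for 33.4% of all genes tested. The log2 fold change was 1.25 (standard error 0.35, edgeR adjusted p = 0.022). It stood beside the higher muscle markers given above, whose part in it was not tested. Without control library 1 it was 0.80 and not called (edgeR adjusted p = 0.093), and without fructose library 1 it was 1.11 and not called (edgeR adjusted p = 0.090). Ampd3, the form known from red blood cells, was just within the threshold (log2 fold change 0.59, standard error 0.20, edgeR adjusted p = 0.0497), and was not called without fructose library 1 (0.34) or control library 1 (0.45). DESeq2 called neither Ampd1 nor Ampd3 (adjusted p = 0.053 and 0.12). Ampd2, with the highest level per kb of this group, averaged 116 ± 11.5 CPM in control against 97.9 ± 0.99 CPM in fructose (mean ± SD of 2 libraries) and was not called (-0.24, edgeR adjusted p = 0.066), but was called lower without control library 1 (-0.34) and with the length trend alone removed (-0.36). Among sugar-responsive regulators, Mlxipl (ChREBP), at 101 and 112 CPM in control and 158 and 126 CPM in fructose, was higher by 0.42 on the log2 scale (edgeR adjusted p = 0.015), and at 0.25 and not called without fructose library 1. Txnip, which has the highest level per kb of this group, was not called (-0.30, edgeR adjusted p = 0.18), but it was called lower without control library 2 (-0.58, edgeR adjusted p = 4.8e-09) and with the GC trend alone removed (-0.44, edgeR adjusted p = 0.048). Of the aldose reductase paralogs, Akr1b10 and Akr1b8 were tested and called by neither tool (log2 fold changes 0.077 and 0.11). Neither fructosamine kinase, Fn3k or Fn3krp, was called by either tool (-0.16 and 0.048), and none of these 4 genes had an unadjusted p-value under 0.05 in edgeR.

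**Figure D5:**
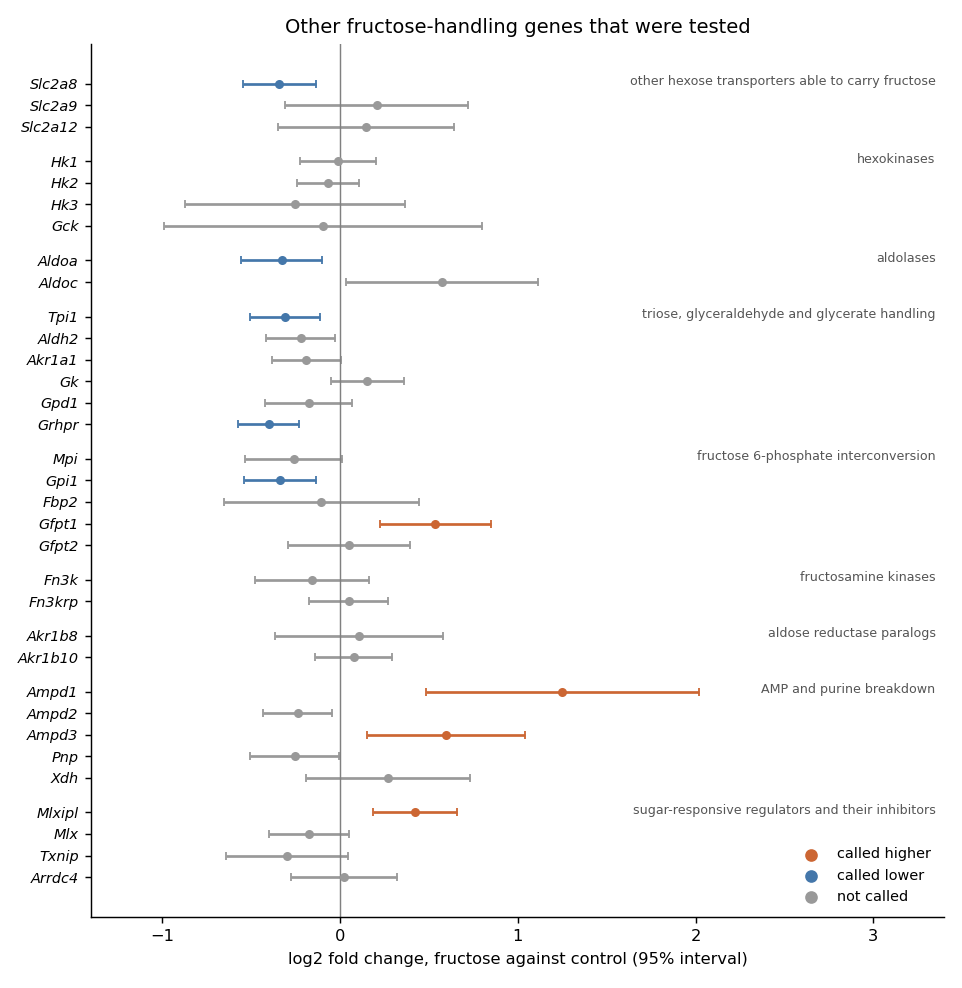
Log2 fold change of fructose against control (x axis) with 95% intervals for the 33 tested genes that handle fructose beside the 6 members, grouped by role. Orange points were called higher (4 genes), blue points lower (5 genes) and grey points neither (24 genes) at an edgeR adjusted p-value under 0.05; the widest positive shift is that of Ampd1, at 1.25.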

How the data were processed

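RNA was taken from E18.5 fetal BAT, with 2 libraries per group. The authors filtered reads with Fastp, mapped them to mm10 with Bowtie2 (2.0.0.5) and TopHat2 (2.0.0), assembled transcripts with StringTie (2.2.0), merged the assemblies with Cuffmerge and took counts per gene from the merged file (versions from the submitters' processing notes). The counts were deposited without normalization, and the 4 tables of single libraries held the same values as the table of all libraries. Within each group the libraries differed beyond sampling noise (chi-square per degree of freedom 11.4 in control and 7.47 in fructose).

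Symbols, coordinates and transcripts came from GENCODE M21 (GRCm38), in which 43 of 22298 identifiers had no match. Transcript length and GC content are those of the longest protein-coding transcript. Genes kept by filterByExpr (12888) were tested with edgeR 4.0.16 (R 4.3.3), quasi-likelihood, TMM, two-sided, Benjamini-Hochberg adjustment. All 6 members passed the filter. Intervals of fold changes use the model's t quantiles. DESeq2 1.42.0 was an alternative. Scripts were tested on simulated data. The 6 members and all gene lists were chosen with earlier results of these data known. Named among the other 41 genes are those called, the highest per kb of each role and, chosen after their values were seen, Aldoc, Slc2a9, Slc2a12, Fn3k, Akr1b8 and genes too low to test.

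Same-numbered libraries showed no shared deviation from their group means (correlation across genes, -0.027). This single correlation cannot tell whether the libraries were paired in handling.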

Additional observations from a re-analysis of the deposited data

How the results depend on the processing

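Results were recomputed with DESeq2, with other library scalings (DESeq2's size factors, library size alone, or sizes that leave out haemoglobin and mitochondrial genes), with a looser and a stricter count filter, with the replicate block, with the length and GC trends removed singly, together and with the block (lowess, span 0.3), and with each library left out, where the lone library of a group is assumed to vary like those of the other group. The cause of each change was not tested. The call of Slc2a5 held in 14 of 15 alternatives and was lost without fructose library 1. With the replicate block its log2 fold change was 1.22 (edgeR adjusted p = 0.0019), and the block changed no call of a member. Of the 6 members, 0 to 1 were called higher with a library left out and 0 to 0 lower, and 1 was called lower (Glyctk) with the length trend removed. Sord reversed to 0.018 with scaling by library size alone and ran from -0.12 to 0.029 with a library left out. Of the 41 other genes, 2 were called higher by DESeq2 and 2 higher and 1 lower with both trends removed, the lower one being Gk (-0.47), whose value was 0.15 before. With a library left out, 1 to 4 were called higher and 1 to 7 lower. Over all genes, 2001 were called higher and 1379 lower, against 1366 and 1053 by DESeq2 and 387 and 682 with both trends removed. With 39 to 218 counts, Slc2a5 is limited by depth as well as by the number of libraries.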
